A study of Mus musculus with 8 samples.

Results

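The non-fibrillar collagen genes were the 33 of 40840 genes in the deposited tables whose symbol has the form of a collagen α chain and which do not encode a chain of a banded fibril. The 11 fibrillar chain genes (Col1a1, Col1a2, Col2a1, Col3a1, Col5a1, Col5a2, Col5a3, Col11a1, Col11a2, Col24a1 and Col27a1) were set aside, out of 44 collagen genes in all. RNA was sequenced from 8 cultures of primary myofibroblastic hepatic stellate cells (pMF-HSCs), the collagen-producing cells that stellate cells of the liver become on plastic. The cells came from wild-type C57BL/6J male mice of 15 to 18 weeks and, per the study's methods, were sorted by the autofluorescence of their stored retinoid after a density gradient. All were kept for 7 days in medium with fetal bovine serum. Per the labels, they then received DMSO (Control, n = 4) or 50 µM OSMI-1 (OGTi, n = 4) for 24 h. OSMI-1 is an inhibitor of O-GlcNAc transferase (OGT), the enzyme that places the sugar O-GlcNAc on nuclear and cytoplasmic proteins. Control and OGTi cultures with the same replicate number were treated as pairs. A single inhibitor at a single dose and time was used, on cells that had activated spontaneously in culture, and the protein was not measured in these libraries.

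Collagens are trimers of α chains wound into a triple helix, and those described here do not form the banded fibrils of scar tissue. Type IV forms the sheet of basement membranes, type VI forms beaded filaments around cells, type VII forms anchoring fibrils and type VIII forms hexagonal networks. The FACIT collagens (fibril-associated collagens with interrupted triple helices), among them types XII, XIV and XVI, sit on the surface of other fibrils, multiplexins such as type XVIII carry an anti-angiogenic fragment, and types XIII, XVII, XXIII and XXV span the cell membrane. In the sinusoid, stellate cells lie in a thin matrix that holds type IV collagen, and in injured liver they deposit a denser one.

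Of the 33 genes, 26 had at least 10 counts over all libraries and were tested, and 7 were not tested. Col6a6, Col9a1 and Col9a2 had 0 counts in every library, and Col6a4, Col13a1, Col15a1 and Col26a1 had 2 to 7 counts in all. In bulk RNA, fewer cells of a kind and less of an RNA per cell cannot be told apart. Libraries held 30068876 to 37372420 counts. In OGTi 4, 23746 genes had counts, against 19035 to 20293 in the other libraries.

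The labelled cell type was checked against marker lists by summed TPM (a level scaled for gene length and depth). The 16 stellate cell markers summed to 7900 to 15237 TPM in Control and to 6953 to 16297 in OGTi. Most of that sum came from Dcn, Acta2, Tagln, Timp1 and Vim (Control means of 522 to 5743 TPM). Lrat, Reln, Hand2 and Lhx2 had Control means of 3.68 to 13.4 TPM. Of the 16, 3 fell in OGTi. They were the growth factor gene Hgf, the retinol-esterifying enzyme gene Lrat and the receptor gene Pdgfrb (log2 fold changes of -2.13, -1.78 and -1.68). The 12 endothelial markers summed to 12.9 to 46.0 TPM in Control and to 24.5 to 32.7 in OGTi, most of it from Egfl7. Of these, 10 were under 1 TPM in every library, including Pecam1, Cdh5, Kdr and Stab2, while Tek and Lyve1 fell in OGTi from mean levels of 1.14 and 0.465 TPM. The 14 macrophage markers summed to 50.9 to 215 TPM in Control and to 90.2 to 261 in OGTi. Cd68, a lysosomal membrane protein gene, rose from a mean of 22.8 to 50.6 TPM (edgeR adjusted p = 0.00154). Of the 14, 5 were under 1 TPM in every library, among them Ptprc, at or under 0.11 TPM. Others were present, mostly in cultures 3 and 4. Tyrobp stood at 0.38, 0.12, 13.7 and 5.4 TPM in Control 1 to 4, and at 0, 0.15, 16.3 and 5.17 in OGTi. C1qb reached 6.22 TPM in Control 3 and 2.39 in OGTi 3, and was at or under 0.11 in cultures 1 and 2. Csf1r lay at 2.22 to 6.66 TPM over all libraries. Sums were 3.33 to 4.06 and 3.22 to 7.66 TPM for hepatocyte markers, 308 to 655 and 128 to 563 for cholangiocyte markers, and 2.49 to 4.33 and 1.99 to 3.21 for portal fibroblast and mesothelial markers. Of the tested genes on those lists, 1 of 6 hepatocyte markers rose (Cyp2e1, from 0.05 to 0.745 TPM), and 0 of 9 portal fibroblast and mesothelial markers passed. Of 9 cholangiocyte markers, the transcription factor gene Sox9 rose from a mean of 1.30 to 10.9 TPM (edgeR adjusted p = 0.00858) and the keratin gene Krt19 fell from 118 to 59.8 TPM (adjusted p = 0.0462). Most of that list's sum came from Krt19 and from Spp1, which was not called. The part of these cells in the collagen values was not tested.

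To see which members these cells make, levels were ranked by TPM. Type IV collagen led: Col4a1 and Col4a2, its α1 and α2 chains, together took 75.1% ± 3.03 (SD, n = 4) of the members' summed TPM in Control and 80.1% ± 2.64 in OGTi. Mean TPM in Control was 370 ± 126 for Col4a1 and 165 ± 62.9 for Col4a2. The short-chain network gene Col8a1 followed at 59.3 ± 29.5 TPM, and the FACIT gene Col14a1 at 35.6 ± 29.8. Below them lay Col6a1 (24.9 ± 12.9 TPM), Col12a1 (19.3 ± 3.98), Col4a5 (18.0 ± 6.31) and Col6a2 (17.0 ± 5.51), and these last 4 overlapped one another between libraries. Col14a1 spanned 7.99 to 74.6 TPM over the Control libraries and overlapped them too, so its place holds for the mean only. Only 11 members reached a mean of 1 TPM in Control, and 21 stayed under 0.5 TPM in both groups. Members summed to 719 ± 275 TPM in Control and 548 ± 277 in OGTi.

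**Figure D1:**
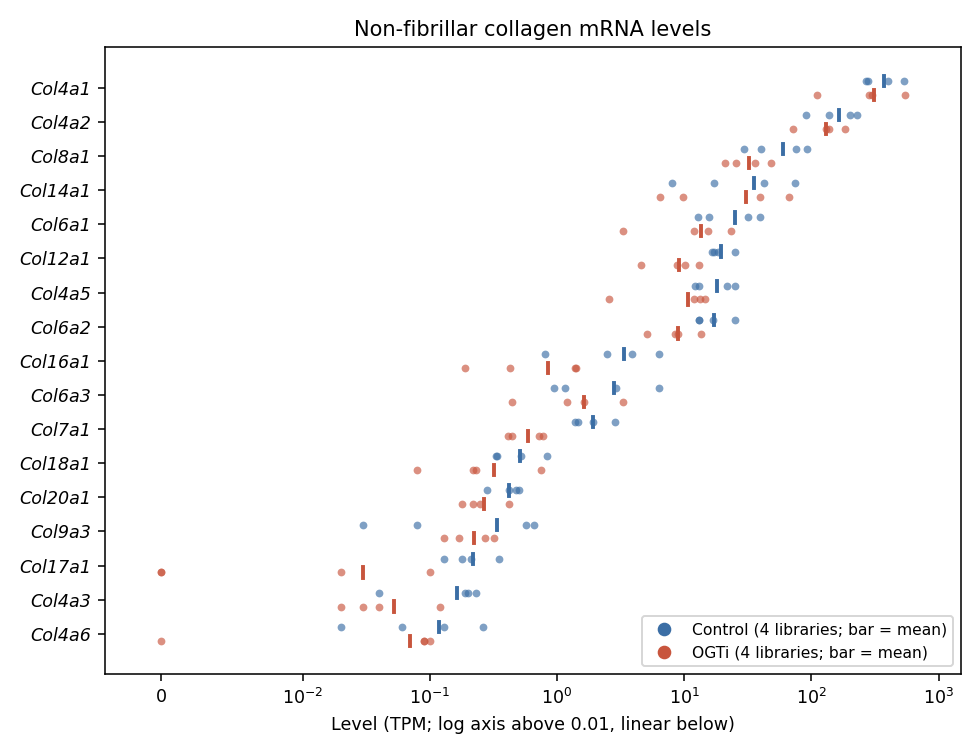
Levels (TPM, horizontal axis) of the members with a mean of at least 0.1 TPM in a group, with 1 point for each library and a bar at each group's mean. Col4a1 and Col4a2 lie highest, and Control and OGTi points overlap for most genes, apart from Col7a1, Col12a1 and Col17a1.

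Promoter sequence was read because several members lie head to head, sharing the stretch between their starts, and 1 of the called members had a window in the RefSeq promoter table that lies almost wholly outside annotated exons. The table (GRCm38.p6) held windows for 27 of the 33 genes, 30 in all, and for each the 250 bases before the start site were searched on both strands for CATTCC (bound by TEAD factors), TGANTCA (AP-1), GGGCGG (Sp1) and TATAAA. Shown are the windows of Col7a1, which fell in OGTi, and of Col8a1, the most abundant member outside type IV by group mean. Those of the head-to-head genes Col4a5 and Col4a6, whose levels differ most between partners as a ratio, are shown too. Bases that GENCODE places in an exon were left off, capitals mark a motif match on either strand, and each window was placed on GRCm39 by an exact match.
Col7a1, chr9:108782404-108782646, plus strand: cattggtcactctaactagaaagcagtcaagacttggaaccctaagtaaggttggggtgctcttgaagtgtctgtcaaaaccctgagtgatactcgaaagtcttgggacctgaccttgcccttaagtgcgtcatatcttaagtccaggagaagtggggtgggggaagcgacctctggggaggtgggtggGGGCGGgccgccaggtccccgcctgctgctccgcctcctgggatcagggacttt
Col8a1, chr16:57575101-57575350, minus strand: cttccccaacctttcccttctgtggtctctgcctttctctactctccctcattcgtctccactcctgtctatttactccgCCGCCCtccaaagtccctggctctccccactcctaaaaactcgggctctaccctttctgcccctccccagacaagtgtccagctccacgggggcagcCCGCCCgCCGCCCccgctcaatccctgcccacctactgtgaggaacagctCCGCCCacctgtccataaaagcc
Col4a5, chrX:140258165-140258353, plus strand: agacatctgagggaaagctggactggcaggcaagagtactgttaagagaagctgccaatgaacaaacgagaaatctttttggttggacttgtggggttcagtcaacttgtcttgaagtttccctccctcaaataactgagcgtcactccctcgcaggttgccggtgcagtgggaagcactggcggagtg
Col4a6, chrX:140257073-140257322, minus strand: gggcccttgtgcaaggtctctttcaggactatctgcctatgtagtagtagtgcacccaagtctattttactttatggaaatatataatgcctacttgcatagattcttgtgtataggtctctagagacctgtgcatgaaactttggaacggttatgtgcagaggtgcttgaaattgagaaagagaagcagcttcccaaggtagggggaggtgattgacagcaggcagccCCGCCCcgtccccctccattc
The Col7a1 stretch holds 1 GGGCGG, the Col8a1 stretch 4 and the Col4a6 stretch 1, and the Col4a5 stretch as printed none of the 4 motifs. The full Col4a5 window also holds 1 GGGCGG, in the 61 exon bases left off, so that the windows searched for Col4a5 and Col4a6 hold 1 each. Over all 30 member windows, 16 held GGGCGG, 3 CATTCC, 1 TGANTCA and 3 TATAAA. Of the 19056 windows of all tested genes, 47.6% held GGGCGG, 11.7% CATTCC, 5.48% TGANTCA and 8.41% TATAAA. A match describes the letters only. No window was given for Col4a3, Col9a3, Col12a1, Col14a1, Col22a1 and Col26a1.

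Across the whole series, 3666 of 19963 genes passed edgeR's quasi-likelihood test, fitted with each pair as a block, at the 0.05 threshold for the p-value adjusted over all genes tested, 10.2% of the genes tested as lower and 8.13% as higher in OGTi. Among the members, 3 of 26 (11.5%) fell and 0 rose, a share near that of all genes in this fit (in other fits it was 3.85% to 26.9%, against 5.52% to 17.4% of all genes). Those that fell were Col7a1, Col12a1 and Col16a1. At an unadjusted p under 0.05 there were 7 of the 26 members, all fitted lower, where 17.5% of all genes were fitted lower at that p, and no alternative fit called a member higher. The median log2 fold change of the tested members was -0.47, against 0.01 over all genes tested. It was -0.26 against -0.05 without pair 4, and -0.18 against -0.10 in a fit to log2(TPM + 1). The fit lay below 0 for 18 members and above 0 for 8, while 49.8% of all genes lay below 0. In 6 members the OGTi value was lower in all 4 pairs, as it was in 21.5% of all genes. In 3, Col7a1, Col12a1 and Col17a1, every OGTi library lay under every Control library, as in 12% of all genes.

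**Figure D2:**
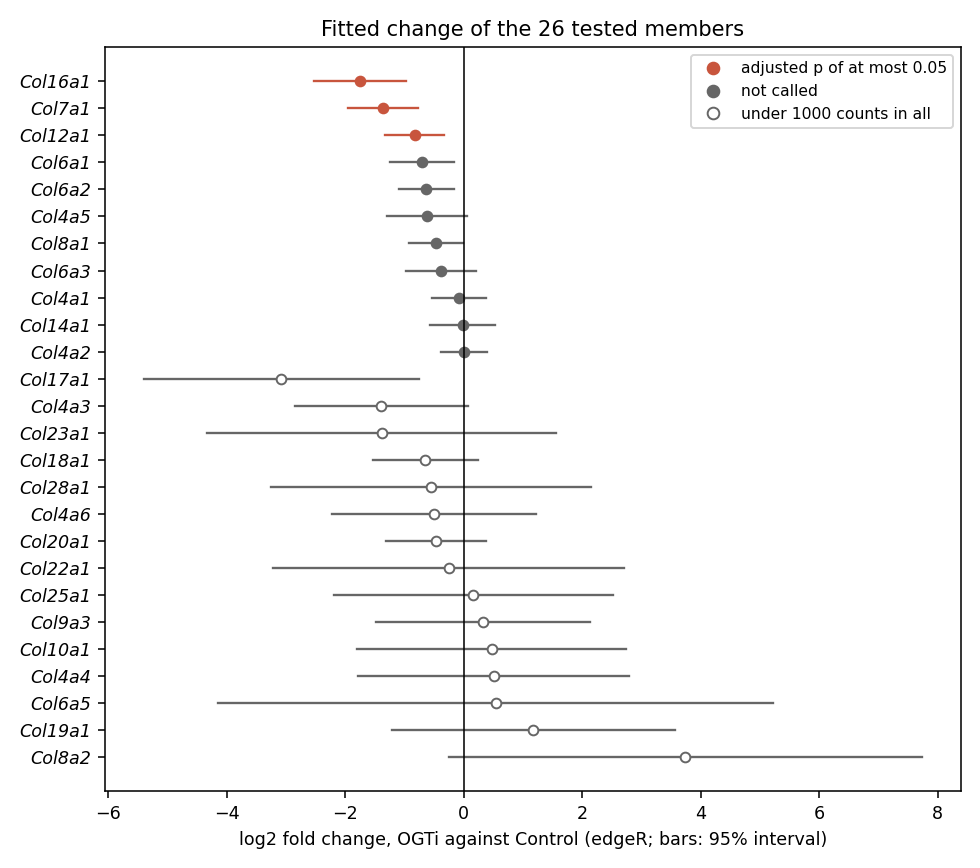
Fitted log2 fold change (OGTi against Control, horizontal axis) of the 26 tested members with 95% intervals, where filled points have at least 1000 counts in all and open points fewer. The intervals of the 3 called genes, Col16a1, Col7a1 and Col12a1, lie wholly below 0, and those of most sparse genes are wide and cross it.

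Col7a1 encodes the single chain of type VII collagen, the anchoring fibril that ties an epithelial basement membrane to the matrix below. It is GENCODE gene ENSMUSG00000025650.15, at chr9:108782647-108813943 on the plus strand of GRCm39. In TMM-scaled CPM (counts scaled to a common library size, with edgeR's correction for composition), Control libraries 1 to 4 stood at 7.23, 7.65, 14.6 and 9.92, and OGTi libraries 1 to 4 at 3.10, 4.42, 4.77 and 2.77. All Control libraries were above all OGTi libraries. The log2 fold change was -1.37 ± 0.27 (SE, edgeR adjusted p = 0.00652, n = 4), with lower values in 4 of 4 pairs. Its level was low throughout, at 1.91 ± 0.691 TPM in Control and 0.588 ± 0.19 in OGTi. It was called in 13 of 13 alternative fits. On the log2(TPM + 1) scale, which shrinks changes of low genes, its log2 fold change was -0.85.

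Col16a1, a FACIT chain found on fibrils and near basement membranes, lies at chr4:129941154-129993076 (plus strand, GRCm39, ENSMUSG00000040690.17). Its scaled CPM in Control 1 to 4 was 2.16, 6.66, 10.2 and 16.6, and in OGTi 1 to 4 it was 0.718, 4.04, 1.45 and 4.41. Every pair fell, but the groups overlapped, because Control 1 was lower than OGTi 2 and OGTi 4. The log2 fold change was -1.75 ± 0.35 (SE, edgeR adjusted p = 0.00737, n = 4). Without the replicate block the adjusted p was 0.0926, the highest of the 13 alternatives (the lowest being 2.4e-05), and on the log2(TPM + 1) scale the log2 fold change was -1.13. Its first exon overlaps that of the antisense gene Gm12963, whose log2 fold change was 1.36 ± 1.30 (adjusted p = 0.525). The libraries were stranded, and the study's methods give a strand-specific setting for the counting.

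Col12a1 encodes the FACIT chain of type XII collagen, which bridges fibrils in tissue under load, and lies at chr9:79506268-79626135 (minus strand, GRCm39, ENSMUSG00000032332.19). Control 1 to 4 had 107, 115, 151 and 99.8 scaled CPM, and OGTi 1 to 4 had 40.8, 87.0, 78.5 and 66.7. The groups did not overlap, and OGTi 1 was the lowest library. This was a log2 fold change of -0.83 ± 0.22 (SE, edgeR adjusted p = 0.0288, n = 4). It was lower in 4 of 4 pairs. The log2 fold change was -0.64 without pair 1 (adjusted p = 0.0524), -0.79 without pair 3 (0.132), -0.90 without pair 4 (0.0638) and -0.79 without the replicate block (0.0603), so the size stayed similar while the call was lost. Among alternatives it ran from 0.00824 to 0.132. By TPM it went from 19.3 ± 3.98 to 9.13 ± 3.51.

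Col14a1, the FACIT chain of type XIV collagen that regulates fibril thickness, lies at chr15:55171140-55384199 (plus strand, GRCm39). Control 1 to 4 had 61.3, 28.6, 147 and 262 scaled CPM, and OGTi 1 to 4 had 33.3, 37.7, 175 and 284. Cultures 3 and 4 were far above cultures 1 and 2 in both groups. Pair 1 was lower in OGTi, and pairs 2 to 4 were higher. The log2 fold change was -0.02 ± 0.24 (95% interval -0.56 to 0.52, edgeR adjusted p = 0.966), so a fall or a rise within those bounds was not excluded. Without pair 1 it was 0.26 (adjusted p = 0.326, range 0.326 to 0.973 over the alternatives). The summed macrophage markers were highest in culture 3 of each group, and their part here was not tested. Lyz2, for instance, stood at 13.7, 26.5, 138 and 63.3 TPM in Control 1 to 4. The other FACIT genes were sparse: Col9a3, Col19a1, Col20a1 and Col22a1 had 47 to 345 counts in all, and none was called.

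**Figure D3:**
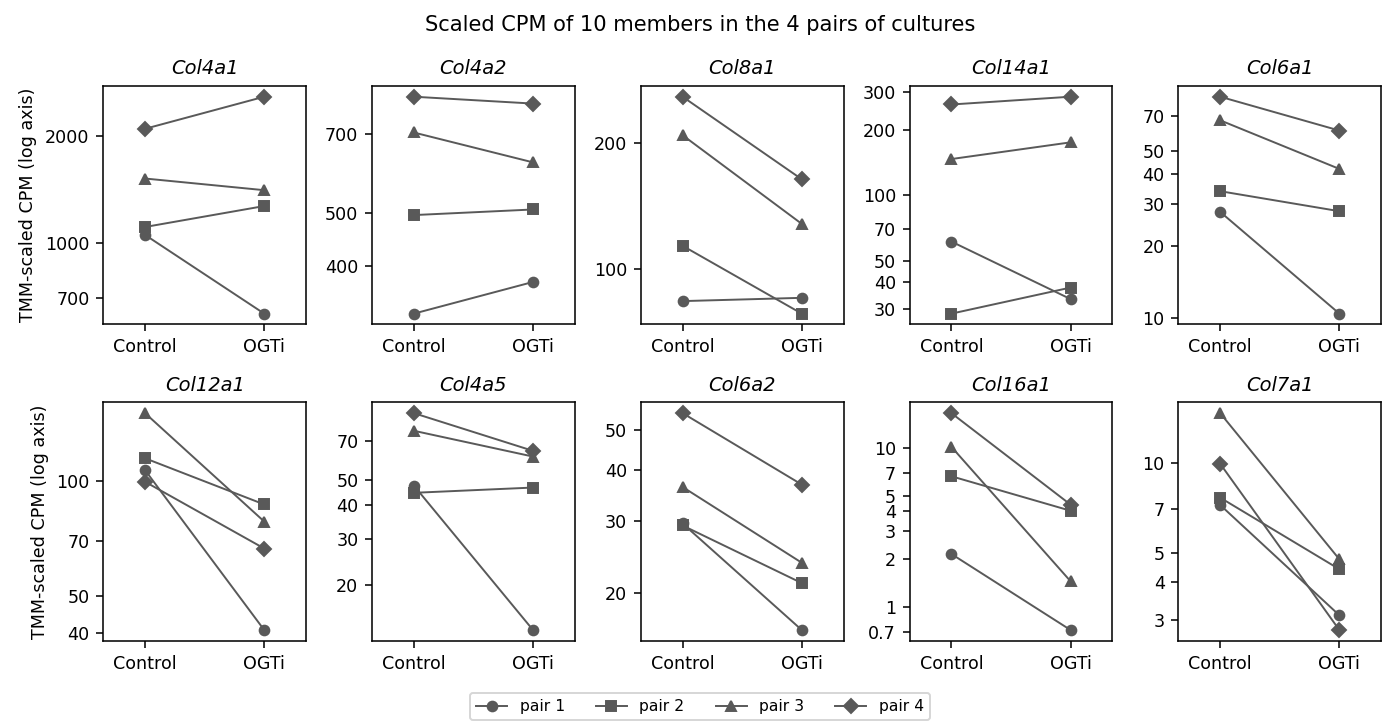
TMM-scaled CPM (vertical log axis, own range for each gene) of the 10 members that were called or had a mean of at least 5 TPM in a group, with a line joining Control and OGTi of a pair. All 4 lines fall for Col6a1, Col12a1, Col6a2, Col16a1 and Col7a1, while those of Col4a1, Col4a2 and Col14a1 run in both directions.

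The type IV genes lie in head-to-head pairs. Col4a1 (chr8:11248423-11362826, minus strand) and Col4a2 (chr8:11362471-11499287, plus strand) overlap by 356 bases at their starts in GRCm39, and Col4a4 and Col4a3 on chromosome 1 by 159 bases. Col4a6 and Col4a5 on the X chromosome lie 1281 bases apart. The partners were both abundant in the first pair (370 and 165 TPM in Control) and both near 0 for the second, with 0.02 TPM for Col4a4 and 0.165 for Col4a3. Of the last pair, Col4a5 was at 18.0 TPM and Col4a6 at 0.118, the stretches before both starts being those printed above.

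Col4a1 had 1055, 1110, 1520 and 2097 scaled CPM in Control 1 to 4 and 633, 1272, 1409 and 2582 in OGTi 1 to 4. Pairs 2 and 4 were higher in OGTi, pairs 1 and 3 lower, and the groups overlapped fully. Its log2 fold change was -0.09 ± 0.21 (95% interval -0.54 to 0.37, edgeR adjusted p = 0.827). Col4a2 had 327, 497, 704 and 819 in Control and 374, 509, 621 and 796 in OGTi. Pairs 1 and 2 of Col4a2 were slightly higher in OGTi and pairs 3 and 4 slightly lower, and its log2 fold change was 0.00 ± 0.17 (95% interval -0.39 to 0.39, adjusted p = 0.998). The directions of both flipped under other scalings. Col4a5, an α5 chain that joins α6 chains in some basement membranes, had 47.6, 44.6, 76.5 and 89.2 scaled CPM in Control and 13.6, 46.7, 61.2 and 64.3 in OGTi. OGTi 1 stood far under the others. Its log2 fold change was -0.62 ± 0.30 (adjusted p = 0.188) over 4 pairs and -0.24 without pair 1 (adjusted p = 0.432, range 0.0869 to 0.491 over the alternatives). The sparse Col4a3 (164 counts), Col4a4 (33) and Col4a6 (100) were not called.

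The main type IV trimer holds a pair of α1 chains and a single α2 chain, so the ratio of the chains' mRNAs was set beside the levels. The ratio of Col4a2 to Col4a1 TPM was 0.339, 0.489, 0.506 and 0.427 in Control 1 to 4 and 0.645, 0.437, 0.482 and 0.337 in OGTi. OGTi 1 was the highest of the 8 libraries, and the other 3 OGTi libraries lay under their Control partners. The mean difference was 0.09 on the log2 scale (SD of the pair differences 0.57, two-sided exact sign-flip permutation test, p = 1), and -0.19 without pair 1. With 4 pairs the smallest p this test allows is 1 in 8.

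Type VI collagen is built from 1 chain each of α1, α2 and a longer chain, most often α3. Col6a1 (chr10:76543440-76562283) and Col6a2 (chr10:76429660-76459549) are neighbours on the minus strand. Col6a1 had 27.9, 34.0, 67.4 and 84.6 scaled CPM in Control 1 to 4 and 10.5, 28.1, 42.2 and 61.1 in OGTi. It was lower in all 4 pairs, though cultures 3 and 4 stayed above cultures 1 and 2 in both groups. Its log2 fold change was -0.71 ± 0.24 and missed the threshold (edgeR adjusted p = 0.0704). Col6a2 had 29.6, 29.3, 36.4 and 55.1 in Control and 16.3, 21.2, 23.7 and 36.9 in OGTi. It too was lower in all 4 pairs, with groups that overlapped, and its log2 fold change was -0.63 ± 0.21 (adjusted p = 0.0603). Both passed in 5 of 13 alternatives, with adjusted p of 0.0446 for Col6a1 and 0.0199 for Col6a2 by DESeq2. Over the alternatives the adjusted p ran from 0.0293 to 0.455 for Col6a1 and from 0.0199 to 0.214 for Col6a2. Col6a3, the α3 chain, had 6.36, 5.23, 15.5 and 34.1 scaled CPM in Control and 3.56, 7.05, 11.2 and 21.7 in OGTi. Pair 2 went the other way, and its log2 fold change was -0.38 ± 0.26 (adjusted p = 0.358). The relatives Col6a4, Col6a5 and Col6a6 had 0 to 18 counts in all.

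Per length, Col6a3 was the scarcest of the main type VI chains. The ratio of Col6a3 to Col6a1 TPM ran from 0.0603 to 0.160 in Control and from 0.0997 to 0.142 in OGTi, with a mean log2 difference of 0.33 (exact p = 0.25). That difference was 0.20 without pair 2, 0.50 without pair 4 and 0.51 with 1 added to each TPM. For Col6a2 to Col6a1, the ratio was 1.03, 0.843, 0.529 and 0.630 in Control and 1.55, 0.746, 0.544 and 0.586 in OGTi. Culture 1 was the highest in both groups. The mean log2 difference was 0.09 (exact p = 0.875), and -0.080 without pair 1.

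**Figure D4:**
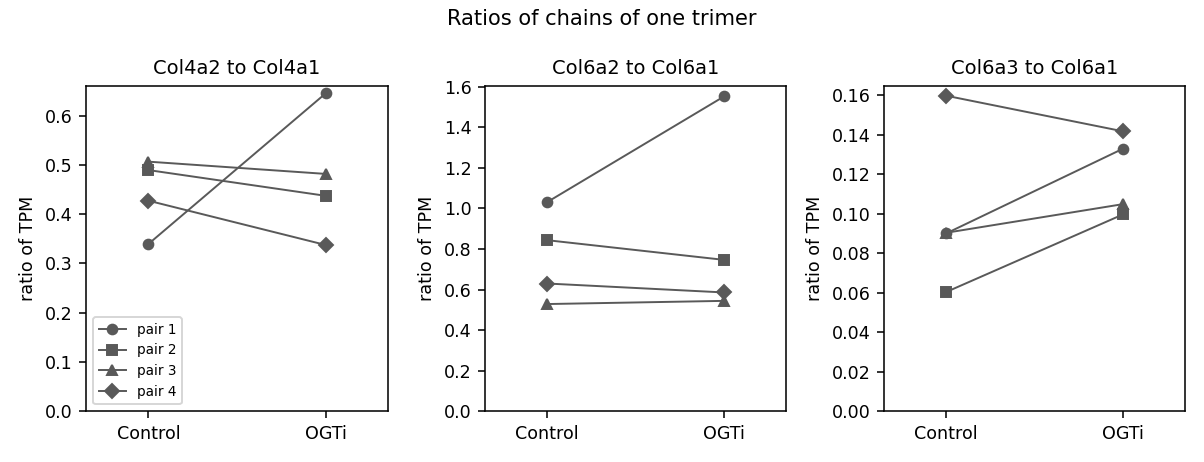
Ratios of TPM (vertical axes, from 0) between chains of one trimer in each library, with a line joining Control and OGTi of a pair. Pair 1 moves apart from the others in the ratio of Col4a2 to Col4a1, rising from 0.339 to 0.645.

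Col8a1 encodes a chain of the short-chain network collagen type VIII, known from vessel walls and the matrix under endothelium (chr16:57444621-57575100, minus strand, GRCm39). It had 83.9, 114, 208 and 257 scaled CPM in Control 1 to 4 and 85.4, 78.3, 128 and 164 in OGTi. Pairs 2 to 4 were lower in OGTi and pair 1 was level. The log2 fold change was -0.47 ± 0.20 (95% interval -0.92 to -0.01, edgeR adjusted p = 0.148), and -0.63 without pair 1, where the adjusted p was 0.0355 (range 0.0198 to 0.531 over the alternatives). Its partner chain Col8a2 had 0, 0, 0 and 2 counts in Control and 11, 11, 9 and 0 in OGTi. Pair 4 went the other way, and the gene was not called (adjusted p = 0.184). Col10a1, the related chain of growth cartilage, had 37 counts in all.

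The remaining members were near the floor of detection. Col18a1, the multiplexin of basement membranes whose end fragment is endostatin, had a mean of 0.508 TPM in Control and 0.32 in OGTi (396 counts in all, edgeR adjusted p = 0.301). Col17a1, a membrane collagen of epithelial hemidesmosomes, had 25, 16, 40 and 20 counts in Control and 3, 0, 0 and 12 in OGTi. Its groups did not overlap, but on 116 counts its adjusted p was 0.0676. It was called in 6 of 13 alternatives. Col23a1, Col25a1 and Col28a1 had 44 to 48 counts and were not called.

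Changes of the named genes were next set across the ways of processing.

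**Figure D5:**
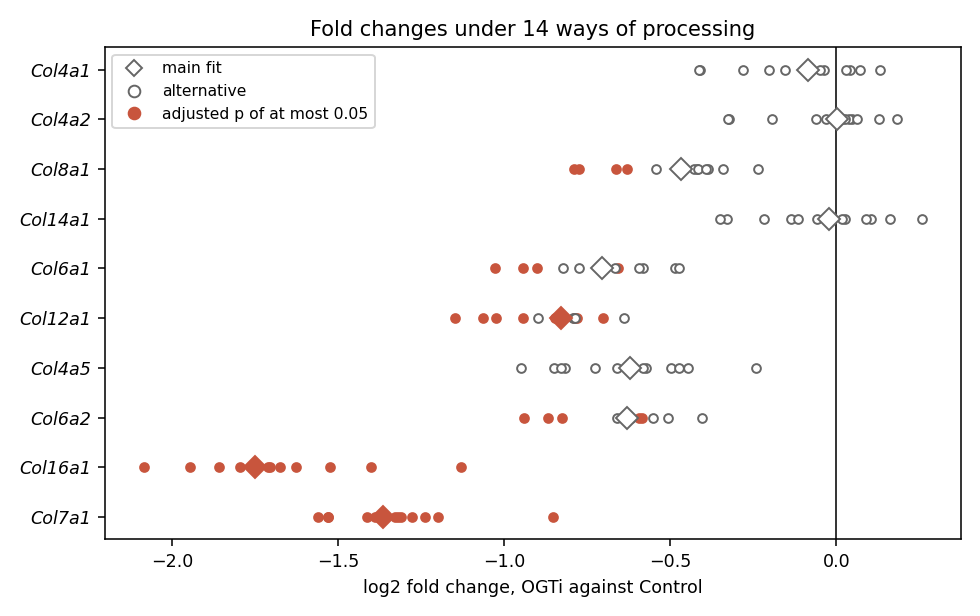
Log2 fold change (horizontal axis) of the 10 members under the main fit (diamonds) and 13 alternatives (circles), filled where the adjusted p was at most 0.05. Col7a1 is filled throughout and Col16a1 in 12 of 13 alternatives, Col12a1 is filled in 9, and Col4a1, Col4a2 and Col14a1 lie on both sides of 0.

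The members are long: the tested ones had a median length of 6304 bases against 2859 over all genes tested, and 12.6% of all genes were longer than that member median. With the trend of fold change on length removed, the same 3 members were called, and the members' median log2 fold change was -0.31. The median over tested members was -0.55, -0.27, -0.35 and -0.47 in pairs 1 to 4, against 0, 0, -0.03 and 0.03 over all genes.

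The fibrillar genes were set beside these. Of their 11 genes, all tested, 1 fell, the type XI chain gene Col11a1 (-1.58 ± 0.47, adjusted p = 0.0428), and 0 rose. Their median was -0.63, and 10.2% of all genes tested fell. The abundant genes Col1a1, Col1a2, Col3a1, Col5a1 and Col5a2 were lower in all 4 pairs but not called. Their log2 fold changes ran from -0.85 (Col1a1) to -0.51 (Col5a1), with adjusted p of 0.0517 (Col3a1) to 0.153 (Col1a2). Col2a1 and Col5a3, both under 1 TPM, were fitted above 0. The fibrillar TPM sum was 1384 ± 571 in Control and 781 ± 461 in OGTi. The ratio of summed non-fibrillar to fibrillar TPM was 0.533 ± 0.0798 (SD, n = 4) in Control and 0.844 ± 0.376 in OGTi. By library it was 0.647, 0.464, 0.498 and 0.524 in Control 1 to 4 and 1.40, 0.666, 0.590 and 0.716 in OGTi 1 to 4. It was higher in OGTi in all 4 pairs, most so in pair 1, and this difference was not tested.

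Genes that make, hold or sense collagens, fibrillar or not, were followed on lists of their own. Of 35 collagen synthesis genes, 6 fell and 1 rose, where 10.2% of all genes tested fell and 8.13% rose. Their median log2 fold change was -0.16. Those that fell most were Adamts14 (-1.66 ± 0.25, adjusted p = 0.00194), a procollagen N-propeptidase, and Pxdn (-1.62 ± 0.35, adjusted p = 0.00997), the peroxidase that cross-links type IV collagen. The prolyl isomerase genes Fkbp14 (-1.27 ± 0.24, adjusted p = 0.00533) and Fkbp10 (-1.15 ± 0.21, adjusted p = 0.00431), whose products help fold procollagen, fell as well. Mia2, which takes part in loading collagen at exit sites of the endoplasmic reticulum, rose by 0.97 ± 0.24 (adjusted p = 0.0194). Serpinh1, the collagen chaperone HSP47, was at -0.24 ± 0.29 (adjusted p = 0.63).

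Of 28 basement membrane partners, 4 fell and 0 rose, with a median of -0.44, where 10.2% of all genes tested fell and 8.13% rose. The fibulin gene Fbln2 went from 136 ± 53.5 to 33.4 ± 21.5 TPM (log2 fold change -1.96 ± 0.25, edgeR adjusted p = 0.000834). The laminin β1 gene Lamb1 went from 131 ± 20.8 to 37.2 ± 22.8 TPM (-1.73 ± 0.33, adjusted p = 0.00597), and the laminin γ1 gene Lamc1 from 33.5 ± 6.1 to 13.1 ± 4.85 (-1.10 ± 0.25, adjusted p = 0.0122). Nid2, a nidogen that links laminin to type IV collagen, had a log2 fold change of -0.95 ± 0.29 (adjusted p = 0.0488). Lamb1, Lamc1 and Nid2 fell in the libraries in which Col4a1 and Col4a2 were not called, but the difference between those genes was not tested. Other genes of both families were not called, among them Nid1 (-0.49 ± 0.25, edgeR adjusted p = 0.207) and Lamb2 (0.07 ± 0.26, adjusted p = 0.888). Of 18 collagen receptors tested, 1 fell, the syndecan gene Sdc1 (-1.13 ± 0.26, adjusted p = 0.0142), and 1 rose, the platelet collagen receptor gene Gp6 (2.99 ± 0.63, adjusted p = 0.00969), which lay outside the naming rule at 0.14 TPM in OGTi and was named after its value was seen. The discoidin receptor gene Ddr2 was at 0.42 ± 0.22 (adjusted p = 0.233) and the integrin gene Itgb1 at 0.00 ± 0.27 (adjusted p = 0.994).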

How the data were processed

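The authors sequenced stranded libraries of polyadenylated RNA on the DNBSEQ platform, aligned reads with Bowtie2 2.3.5.1 to mm39 (GRCm39) and quantified genes with RSEM 1.3.1, per the labels and the submitters' processing notes. The deposited tables, 1 per library, hold expected counts (estimated reads per gene, which need not be whole) and TPM, which the authors' RSEM run scaled by gene length and depth. A deposited comparison table holds the authors' own fold changes and p-values from DESeq2 1.36.0 and was not used.

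Expected counts were rounded and fitted with edgeR 4.0.16 in R 4.3.3 over the 19963 genes with a total of at least 10 counts, with TMM scaling, the replicate number as a block and Benjamini-Hochberg adjustment over all genes tested. By the fit, the coefficient of variation left between cultures after the replicate block was 0.342. The study paired Control and OGTi by replicate. Deviations from group means of same-numbered libraries correlated at 0.16, 0.224, 0.105 and 0.318 across genes, against -0.312 to 0.208 for other pairs of libraries. Of the same-numbered values, 0.16 and 0.105 lie inside that range. Deviations within a group sum to 0, which pulls the other correlations down, so the comparison does not settle the pairing. The fit was tested on simulated data. P-values of the main fit measure the spread of the Control-to-OGTi change between pairs. At 30068876 to 37372420 counts per library, counting error was small beside that spread, except for sparse genes. Scaled CPM compares libraries within a gene, and TPM compares genes. Intervals are 95% intervals of the fit.

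Named with all values were the members called and those with a mean of at least 5 TPM in a group, and up to 4 called genes per direction at that level from the lists of collagen synthesis, basement membrane partners and receptors. Col6a3, Col8a2, Col17a1, Col18a1, Serpinh1, Nid1, Lamb2, Ddr2, Itgb1 and Gm12963 were added after their values were seen. The same holds for the fibrillar genes named for their changes and the cell type markers named singly. The members and lists were chosen with earlier results of these data known. Loci are from GENCODE vM39 (GRCm39) and promoter windows from RefSeq. Alternatives were other scalings, DESeq2 1.42.0, other count filters, no replicate block, removal of a length trend, limma 3.58.1 on log2(TPM + 1) or log2(TPM + 0.1), and leaving out each pair.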

Additional observations from a re-analysis of the deposited data

How the results depend on the processing

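The count of members called lower was 3 in the main fit, 7 with library totals alone, 6 with DESeq2, 5 with no count filter, 7 with limma on log2(TPM + 1) and on log2(TPM + 0.1), and 2 to 3 with a pair left out. No paired term, that is no replicate block, gave 1 (Col7a1), and 2991 genes in all. As shares of the genes tested, members against all genes called lower were 11.5% and 10.2% in the main fit, 26.9% and 14.6% with totals, 23.1% and 12.4% with DESeq2, 16.7% and 9.28% with no filter, 23.5% and 13.5% with edgeR's filterByExpr, 26.9% and 17.3% on log2(TPM + 1), 26.9% and 17.4% on log2(TPM + 0.1), and 3.85% and 7.67% without the block. The nearness of both shares thus depended on the setting, and their difference was not tested. The number called higher was 0 in every alternative. All genes called were 1905 to 3124 with a pair left out (lowest without replicate 3, then 1956 without replicate 4). The members' median log2 fold change was -0.34 with upper-quartile scaling, -0.66 with library totals, -0.32 with no filter, -0.31 with the length trend removed, -0.18 on log2(TPM + 1), and -0.54 to -0.26 with a pair left out. The median of all genes was 0.13 with upper-quartile scaling and -0.19 with totals. It was -0.10 on log2(TPM + 1) and -0.23 on log2(TPM + 0.1), fits in which the scaling, the pseudocount and the model all differ from the main one. Relative to it, the members' median was -0.47 in the main fit, -0.47 with both other scalings of counts, and -0.08 and -0.17 on the log2 TPM scales. The share of called genes that were higher was 44.3% with TMM, 54.2% with upper quartile, 30.1% with totals, and 25.7% and 26.2% on the log2 TPM scales.

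Signs near 0 flipped, none called. Col4a1 was 0.040 with upper-quartile scaling, 0.028 without the block, 0.072 with the length trend removed and -0.20 to 0.13 with a pair left out. Col4a2 was -0.19 with totals, -0.0054 with no filter, -0.030 without the block, -0.32 and -0.33 on log2(TPM + 1) and log2(TPM + 0.1), and -0.062 to 0.063 with a pair left out. Col14a1 was 0.10 with upper quartile, 0.027 with DESeq2, 0.017 with edgeR's filterByExpr, 0.090 without the block, 0.16 with the length trend removed and -0.14 to 0.26 with a pair left out. With a pair left out, the log2 ratio difference ran from -0.19 to 0.23 for Col4a2 to Col4a1 and from -0.080 to 0.18 for Col6a2 to Col6a1. The causes were not tested. Depth limits the sparse genes: of the tested members with under 1000 counts in all, the 95% interval crossed 0 for every one but Col17a1.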
